A study of Mus musculus with 4 samples.

Results

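Axon guidance genes encode the secreted and membrane-bound cues, and their receptors, that steer growing nerve fibres and that many other tissues use as well. Here 63 such genes were described in the newborn mouse lung, out of 18436 genes whose normalized counts averaged 10 or more and 48709 genes in the table. The rule took symbol and level: protein-coding semaphorins of classes 3 to 7, plexins, neuropilins, netrins, UNC5 receptors and Dcc, Slits, Robos, ephrins and Eph receptors that averaged at least 10 over the 4 lungs. In all, 71 protein-coding rows matched the symbols, and 8 lay under that level. RNA came from the left lung lobe at postnatal day 1, from 2 RykSL/SL mice and 2 wild-type mice, all C57BL/6 and untreated. Both copies of Ryk carry the SL allele in the mutants. What the allele does to the protein is not stated in the labels, which also give neither sex nor litter. Each library is a separate mouse, and the whole lobe was used, so every value mixes all cell types of the lung. Ryk, a receptor for WNT ligands that itself takes part in axon guidance, is not among the 63 genes. Its own normalized counts were 2757 and 2203 in RykSL/SL lungs, called mutant from here on, against 2528 and 2525 in wild-type lungs.

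The 4 guidance systems share a plan in which a cue from one cell attracts or repels another by changing its actin skeleton. Semaphorins bind plexins, and the secreted class 3 semaphorins use neuropilins as co-receptors. Netrins attract through DCC or neogenin and repel through UNC5 receptors, Slits act through Robo receptors, and ephrins and Eph receptors signal in both directions between touching cells. In the lung these genes are known from branching airways, vessels and septa: netrins and Unc5b lie around growing buds, Slit and Robo genes act in mesenchyme and neuroendocrine cells, and Efnb2 and Ephb4 mark arterial and venous endothelium.

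The normalized counts summed to 18658239 to 19987634 per library, and the surfactant gene Sftpc, which defines alveolar type 2 cells, had 135559 to 220945 of them in each lung. Mutant replicate 1 stood apart in sex-linked genes, with 24836 normalized counts of Xist, the RNA of the inactive X chromosome, where the other 3 lungs had 7 to 23. The Y-linked gene Ddx3y was at 56 in this lung, against 2197 to 3769 in the other 3. By these 2 genes sex differed within the mutant group, and its part in the values was not tested. The mutant lungs also differed more from each other than the wild-type lungs did. Over the 63 genes the SD of the log2 difference was 0.453 between the mutant lungs and 0.201 between the wild-type lungs. Over all tested genes it was larger in both groups, at 0.600 and 0.314, so the wider mutant spread is not particular to the guidance genes. Of the 63 genes, 45 were lower in mutant replicate 2 than in mutant replicate 1, with a median log2 difference of -0.32, against -0.02 over all tested genes. The summed normalized counts of the 63 genes were 61856 and 48812 in mutant replicates 1 and 2, against 59674 and 60143 in the wild-type lungs.

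Of the 63 guidance genes, 3 differed between the genotypes: the netrin receptor gene Unc5c and the Slit receptor gene Robo2 fell in the mutant, and the plexin gene Plxna2 rose. All are receptors. None of the 34 ligand genes passed in limma, and 8 had an unadjusted p below 0.05, which 20.1% of all tested genes had. Each gene was tested in limma, with log2(value + 1) as input and a trend of variance on mean, and counted as called where the Benjamini-Hochberg adjusted p over all 18436 genes was below 0.05. Over all genes 440 passed, or 2.39%, and among the guidance genes the share was 4.76%. By direction, 0.917% of all genes were called lower and 1.47% higher. The median log2 fold change (mutant minus wild type) was -0.24 over the 63 genes and -0.02 over all tested genes. It was -0.35 over the 29 receptor and co-receptor genes and -0.16 over the 34 ligand genes. Both mutant lungs lay below both wild-type lungs in 26 of the 63 genes (41.3%, against 26.9% of all genes) and above them in 12 (19.0%, against 25.7%).

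The single lungs decided how many passed. With 1 lung of a group left out, limma takes the spread within groups from the 2 lungs of the other group alone. Calls from such a fit concern the single lung that remains in its group, and they do not describe the genotype. With mutant replicate 1 (high Xist) left out, 17 of the 63 genes were called, 15 lower and 2 higher, against 12.9% of all genes. Besides Unc5c, Robo2 and Plxna2 these were Unc5b, Ntn1, Slit2, Robo1, Nrp1, Nrp2, Plxnc1, Plxnd1, Sema4f, Sema6d, Efna1, Epha1 and Epha7, all lower, and Epha2, which was higher. Without mutant replicate 2, or without either wild-type replicate, limma called none of them, nor any other gene. An unadjusted p below 0.05 was found for 25 of the 63 without mutant replicate 2 (28.5% of all genes), for 5 without wild-type replicate 1 (4.97%) and for 8 without wild-type replicate 2 (6.15%). In limma none was called either when genes of any level were tested (17 below 0.05 before adjustment, against 15.3% of all genes) or when the variance trend was dropped (18, against 18.6%). With the replicate number as a block, 7 were called, against 4.15% of all genes. The median of the 63 genes was -0.064 without mutant replicate 2 and -0.37 without mutant replicate 1.

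**Figure D1:**
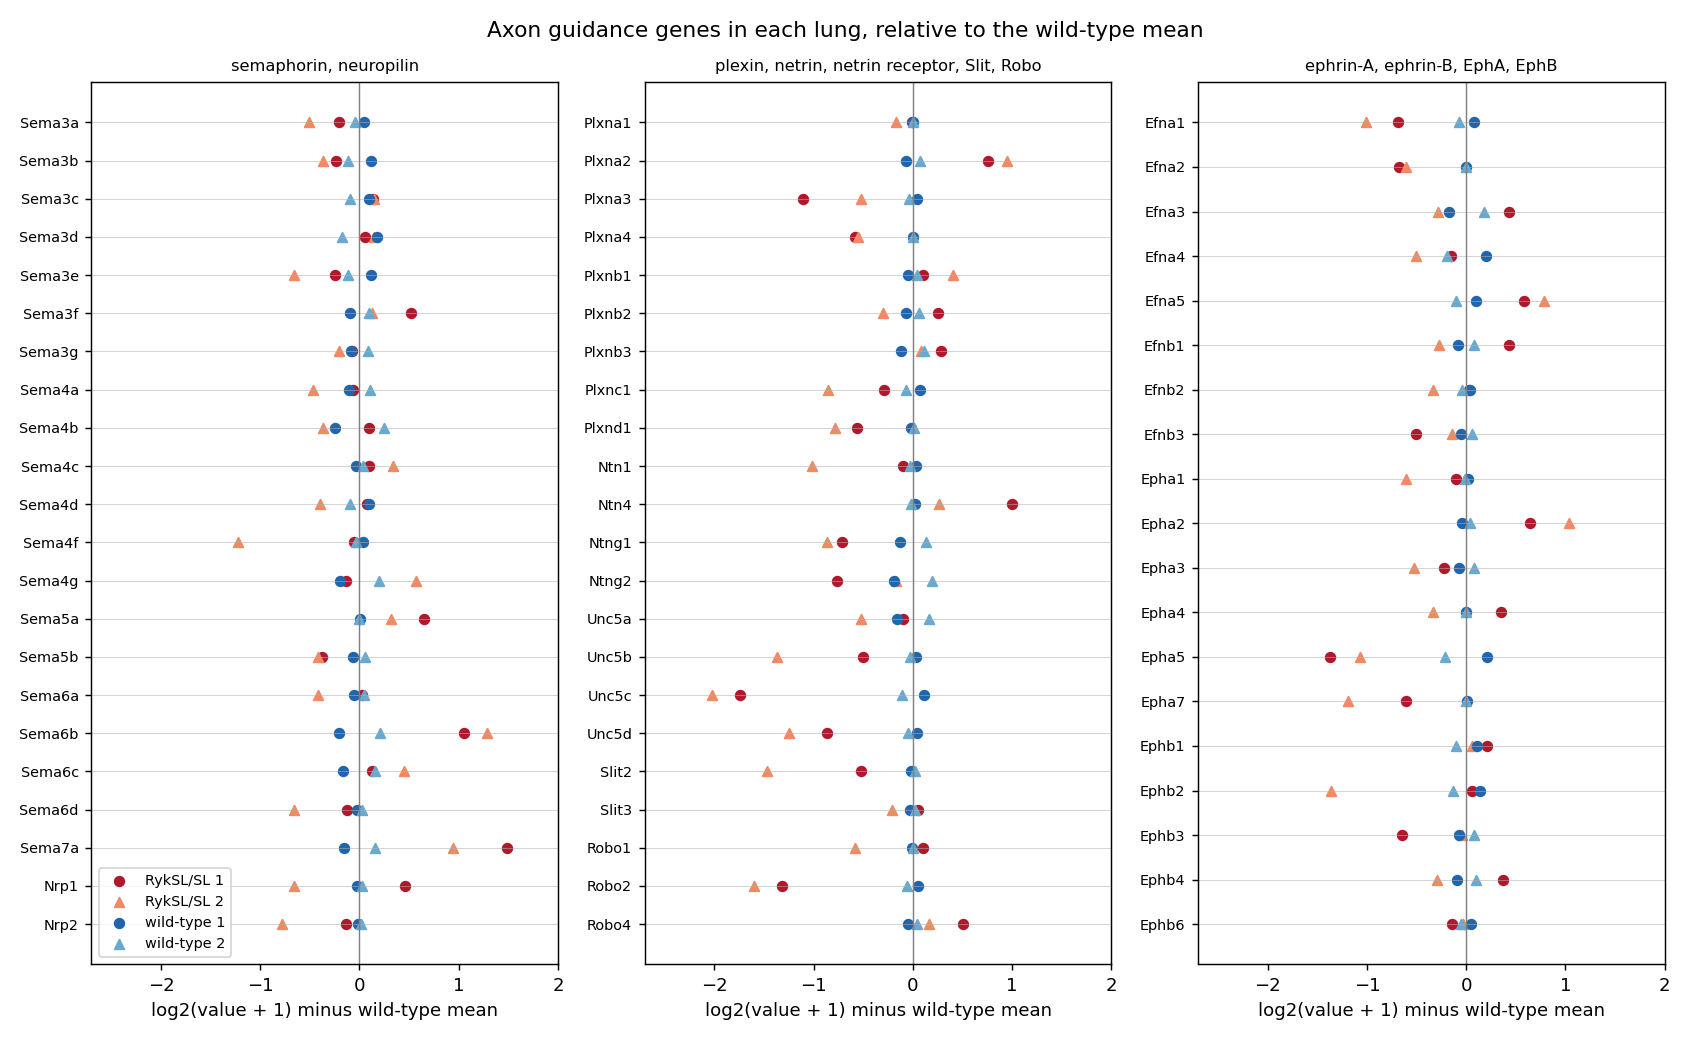
Every one of the 63 guidance genes in each lung, as log2(value + 1) minus the mean of the 2 wild-type lungs (horizontal axis), grouped by family; red and orange points are the mutant lungs, blue points the wild-type lungs. Both mutant points of Unc5c and Robo2 lie more than 1 log2 unit below zero, and those of Sema6b lie more than 1 above it.

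The netrin receptors held the largest decrease. Unc5c encodes a receptor that turns netrin into a repellent and carries a death domain (ENSMUSG00000059921, chromosome 3, positions 141465216 to 141834924, GRCm38). Unc5c stood at 347 and 287 normalized counts in the mutant lungs, against 1261 and 1078 in the wild-type lungs. The groups lie far apart, and the mutant mean was 0.271 of the wild-type mean. On the log2(value + 1) scale the difference was -1.88 (standard error 0.17, limma adjusted p = 0.0109). Over the 12 alternative settings it lay between -2.02 and -1.75, and the adjusted p between 0.00116 and 0.785. Of its 19135 annotated exon bases, 118 overlap Gm15688 on the opposite strand. The other 3 measured UNC5 genes also had negative differences, but none passed. Unc5b, the endothelial netrin receptor, had 564 and 309 normalized counts in the mutant lungs, against 812 and 782 in the wild-type lungs (-0.93, standard error 0.29, limma adjusted p = 0.159). Unc5d, a receptor that also binds FLRT proteins, was low, at 25 and 19 against 48 and 45, and Unc5a at 74 and 55 against 71 and 89. Within a lung, the ratio of Unc5c to Unc5b was 0.615 and 0.929 in mutant lungs, against 1.55 and 1.38 in wild-type lungs. Dcc, the attractive netrin receptor, had 1 normalized count in 1 wild-type lung and was at 0 in the other 3 lungs. Neo1, which encodes neogenin, was at 3206 and 2402 in the mutant lungs, against 3791 and 3804 in the wild-type lungs (-0.45, limma adjusted p = 0.235).

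Their ligands did not pass. Ntn1, the netrin of the classical floor-plate signal, had 445 and 234 normalized counts in the mutant lungs, against 487 and 465 in the wild-type lungs. Ntn4, a netrin of basement membranes, had 770 and 461 in the mutant lungs, against 391 and 379 in the wild-type lungs (0.63, standard error 0.25, limma adjusted p = 0.245). Within each lung Ntn4 was at 1.73 and 1.97 times the value of Ntn1 in mutant lungs, against 0.803 and 0.815 times in wild-type lungs. The groups do not overlap in either gene, and the single mutant lungs differ more from each other than the wild-type lungs. The GPI-anchored netrin-G genes Ntng1 and Ntng2 were low, at 9 and 8 against 14 and 17, and at 46 and 70 against 69 and 90.

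Robo2 was the other gene that fell. It encodes a Slit receptor (ENSMUSG00000052516, chromosome 16, positions 73892306 to 74411825, minus strand). Robo2 reached 374 and 307 normalized counts in the mutant lungs, against 969 and 898 in the wild-type lungs, so that the mutant mean was 0.365 of the wild-type mean. The log2 difference was -1.46 (standard error 0.16, limma adjusted p = 0.0181), and it ranged from -1.60 to -1.32 over the alternative settings, with adjusted p from 0.00416 to 0.86. Robo1 lies next to Robo2 on chromosome 16, 846211 bases away. Robo1 stood at 789 and 491 normalized counts in the mutant lungs, against 735 and 739 in the wild-type lungs, and the groups overlap. The ratio of Robo2 to Robo1 was 0.474 and 0.625 in the mutant lungs, against 1.32 and 1.22 in the wild-type lungs. With 2 lungs per genotype an exact permutation test of such a ratio cannot go below p = 0.333, so these ratios stand as values. Robo4, the endothelial member of the family, was at 1157 and 911 in the mutant lungs, against 787 and 839 in the wild-type lungs (0.34, limma adjusted p = 0.321).

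Among the Slits, Slit2 had 2285 and 1185 normalized counts in the mutant lungs, against 3236 and 3339 in the wild-type lungs. Both mutant lungs were lower, but they differed nearly as much from each other as from the wild type, and the gene did not pass (-0.998, standard error 0.30, limma adjusted p = 0.157). Without mutant replicate 2 the log2 difference was -0.52, and without mutant replicate 1 it was -1.47. The Slit3 values overlapped, with 644 and 536 in the mutant lungs, against 611 and 633 in the wild-type lungs (-0.08, standard error 0.16). The ratio of Slit2 to Slit3 was 3.55 and 2.21 in the mutant lungs, against 5.30 and 5.27 in the wild-type lungs.

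**Figure D2:**
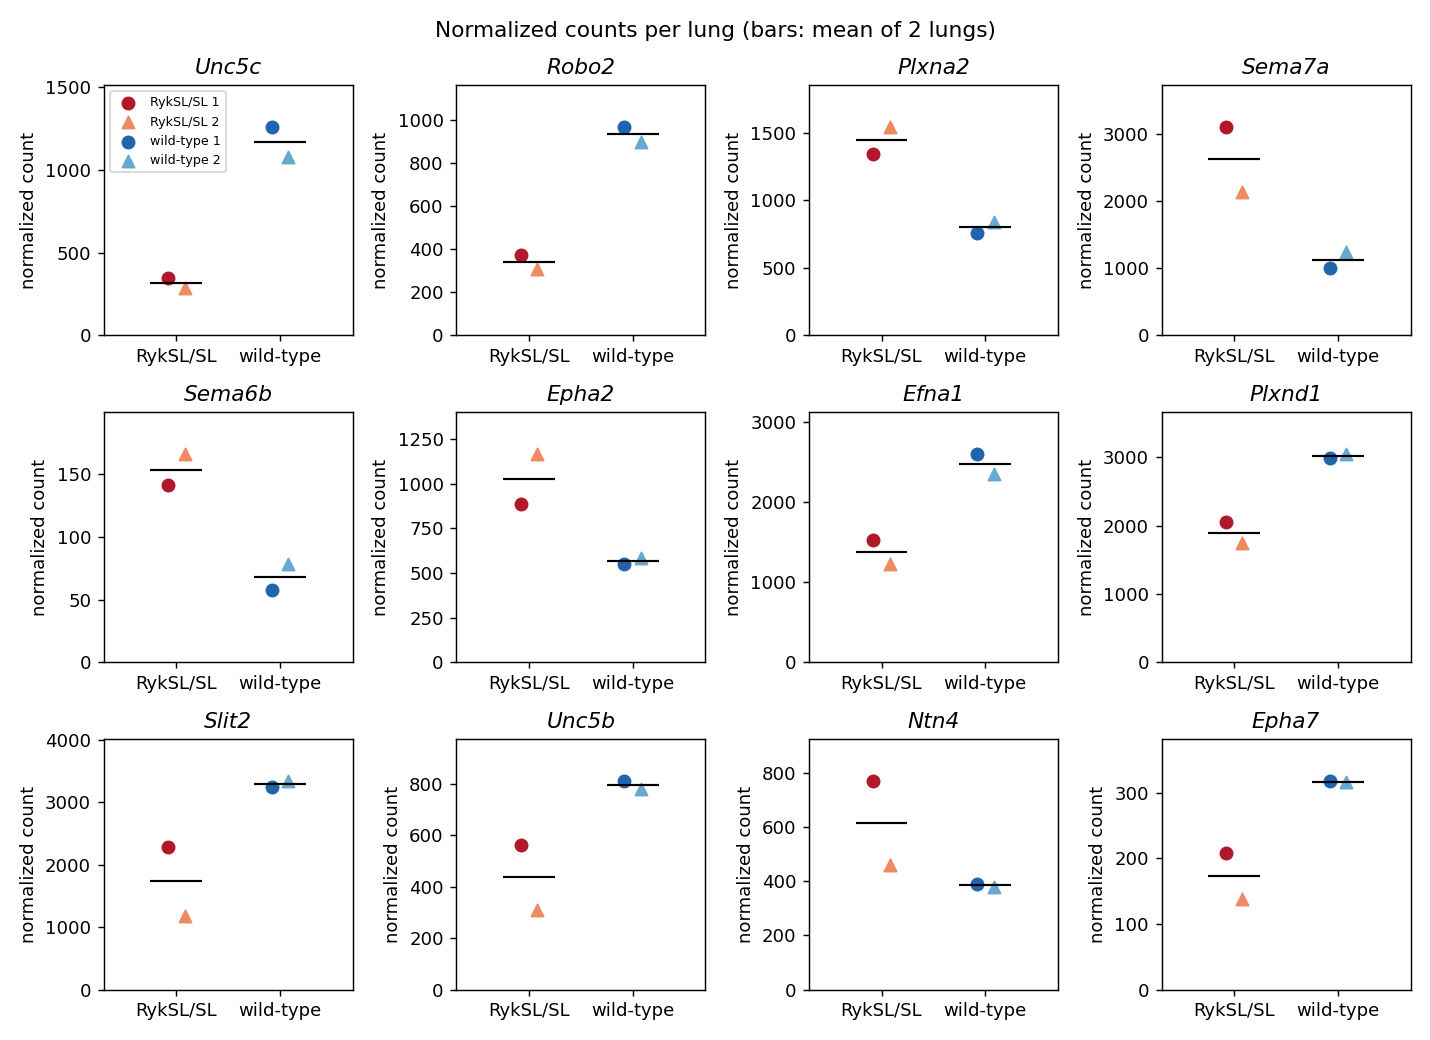
Normalized counts (vertical axes, from 0) of 12 guidance genes in the mutant lungs, at the left of each panel, and the wild-type lungs, at the right; bars are means of 2 lungs. The 12 were chosen among called genes and genes with large differences, so it follows in part from the choice that the genotypes do not overlap in any of them. Of all tested genes, 25.7% had both mutant lungs above both wild-type lungs and 26.9% had them below. For Slit2, Unc5b and Ntn4 the mutant points are far apart (2285 and 1185, 564 and 309, 770 and 461).

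Plxna2 was the gene that rose. It encodes a receptor for class 6 semaphorins and, with neuropilins, for class 3 semaphorins (ENSMUSG00000026640, chromosome 1, positions 194618218 to 194816869, plus strand). Plxna2 reached 1347 and 1546 normalized counts in the mutant lungs, against 761 and 839 in the wild-type lungs, a mutant mean of 1.81 times the wild-type mean. The log2 difference was 0.85 (standard error 0.15, limma adjusted p = 0.0489). This call lies close to the threshold: the direction held in all 12 alternative settings (0.75 to 0.95), but the adjusted p, which spanned 0.0383 to 0.968, was 0.066 after quantile normalization and 0.0627 after scaling to the library total.

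Differences in both directions were seen among the other plexins, and none passed. Plxna3 (108 and 162 in the mutant lungs, against 241 and 227 in the wild-type lungs) and Plxna4 (374 and 383, against 561 and 561) had differences of -0.82 and -0.57. Plxnd1, the endothelial receptor of Sema3e, had 2049 and 1749 normalized counts in the mutant lungs, against 2991 and 3050 in the wild-type lungs (-0.67, standard error 0.15, limma adjusted p = 0.081). Plxnc1, the receptor of Sema7a, was at 482 and 326, against 621 and 563. Plxna1, Plxnb1, Plxnb2 and Plxnb3 had differences between -0.09 and 0.25. Plxna2 stood at 0.84 and 1.08 times the value of Plxna1 in the mutant lungs, against 0.474 and 0.521 times in the wild-type lungs.

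To show where transcription of the 3 called genes starts, their RefSeq promoter windows (GRCm38.p6, 250 bases before to 50 after the start, given on the gene's own strand) are printed here. Capitals mark GC boxes, GGGCGG on either strand. For Robo2, which has 3 RefSeq starts, the window nearest to the deposited gene start was taken; gene totals cannot tell which start was used. The RefSeq start lies 1611 bases inside the deposited gene start for Plxna2, and 348 bases inside it for Unc5c. The windows of Unc5c, Robo2 and Plxna2 are chr3:141465314-141465613 (plus strand), chr16:74411776-74412075 (minus strand) and chr1:194619579-194619878 (plus strand).
Unc5c: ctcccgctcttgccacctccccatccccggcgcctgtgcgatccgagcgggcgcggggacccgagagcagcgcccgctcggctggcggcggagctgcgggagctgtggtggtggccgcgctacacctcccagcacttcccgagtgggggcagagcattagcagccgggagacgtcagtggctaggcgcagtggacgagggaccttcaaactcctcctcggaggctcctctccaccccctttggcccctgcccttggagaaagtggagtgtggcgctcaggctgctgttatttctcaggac
Robo2: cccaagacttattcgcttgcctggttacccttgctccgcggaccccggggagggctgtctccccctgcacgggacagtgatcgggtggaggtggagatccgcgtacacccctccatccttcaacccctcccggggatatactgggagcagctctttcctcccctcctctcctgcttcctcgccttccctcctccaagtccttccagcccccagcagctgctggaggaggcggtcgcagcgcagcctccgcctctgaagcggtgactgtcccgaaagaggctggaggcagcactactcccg
Plxna2: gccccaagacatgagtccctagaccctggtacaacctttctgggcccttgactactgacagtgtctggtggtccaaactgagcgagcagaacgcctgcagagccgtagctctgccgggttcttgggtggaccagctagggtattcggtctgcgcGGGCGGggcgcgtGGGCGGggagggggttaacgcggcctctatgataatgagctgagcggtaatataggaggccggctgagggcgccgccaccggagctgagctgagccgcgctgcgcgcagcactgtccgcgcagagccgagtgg
All 3 windows are rich in G and C (68.3%, 65.0% and 64.7%) and hold 24, 17 and 25 CpG dinucleotides, where the median over 32851 mouse promoter windows of the same length is 7 and the median over the 71 windows of 55 guidance genes is 20. Plxna2 holds 2 GC boxes and the others none. Of all windows 35.7% hold at least 1, and of those of guidance genes 69.0%. Neither the E-box CACGTG nor the glucocorticoid half-site AGAACA, each searched on both strands with no overlap between the motifs, occurs in these letters. They occur in 7.15% and 19.0% of all windows.

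None of the 20 semaphorin genes passed, with a median log2 fold change of -0.14 and 3 genes at an unadjusted p below 0.05 in limma, a smaller share than the 20.1% of all genes. The largest difference was that of Sema7a, a GPI-anchored semaphorin that binds plexin C1 and beta1 integrins. Sema7a stood at 3105 and 2138 normalized counts in the mutant lungs, against 995 and 1238 in the wild-type lungs. Both mutant lungs lie above both wild-type lungs and the mutant mean was 2.35 times the wild-type mean, but the adjusted p was 0.0552 (limma, log2 difference 1.21, standard error 0.22). Its ratio to Plxnc1 was 6.44 and 6.56 in the mutant lungs, against 1.602 and 2.20 in the wild-type lungs. Sema6b, a transmembrane ligand of plexin A4, had 141 and 166 in the mutant lungs, against 58 and 78 in the wild-type lungs (1.17, standard error 0.24, limma adjusted p = 0.0752). Sema5a, which binds plexin B3, had 2750 and 2190, against 1760 and 1744 (0.49, limma adjusted p = 0.18).

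Among the secreted class 3 semaphorins, differences were smaller. Sema3c, a secreted semaphorin known from the outflow tract and the developing lung, was the semaphorin with the highest mean value and had 3218 and 3240 normalized counts in the mutant lungs, against 3123 and 2739 in the wild-type lungs. Sema3a, the classical collapsing cue, had 2275 and 1848, against 2723 and 2545 (-0.36, standard error 0.16, limma adjusted p = 0.274). Sema3e, the ligand of Plxnd1, had 1383 and 1040, against 1776 and 1516 (-0.45, limma adjusted p = 0.251), and Sema3f had 1824 and 1390, against 1195 and 1359 (0.32). The differences of Sema3b, Sema3d and Sema3g were between -0.30 and 0.10. Sema3a, Sema3d and Sema3e lie beside each other on chromosome 5, and Sema3b and Sema3f on chromosome 9, 72271 bases apart, with differences of -0.30 and 0.32. Sema4f showed the widest gap between mutant lungs in the class 4 group, with 562 and 251 in the mutant, against 599 and 572 in the wild type.

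The neuropilins, co-receptors of the class 3 semaphorins, differed between the mutant lungs. Nrp1, which also binds VEGF-A, had 3616 and 1660 normalized counts in the mutant lungs, against 2578 and 2665 in the wild-type lungs, so that one mutant lung lay above and the other below the wild type (-0.10, standard error 0.35, limma adjusted p = 0.906). Without mutant replicate 2 the difference was 0.46 and without mutant replicate 1 it was -0.66. The value of Nrp2, the neuropilin of veins and lymphatics, was 2309 and 1483 in the mutant, against 2523 and 2563 in the wild type. Marker genes differed between the mutant lungs as well. The summed normalized counts of 12 endothelial genes were 45711 and 30665 in mutant replicates 1 and 2, against 36541 and 39972 in the wild-type lungs, and none of the 12 passed the test. Of these, 10 were lower in mutant replicate 2 than in mutant replicate 1, while Egfl7 (4162 and 5110) and Cldn5 (3466 and 4046) were higher. Some other lists were split in the same direction. Their sums were 16074 and 8686 in the mutant, against 11858 and 11063 in the wild type, for 9 genes of smooth muscle and pericytes. For 8 epithelial genes, 5 of them lower in mutant replicate 2, they were 38154 and 25885, against 35040 and 32006. For 8 alveolar type 2 genes, 6 of them lower in mutant replicate 2, the sums were 281322 and 226385, against 337784 and 311275. Sftpc made up most of the alveolar type 2 sums, at 179120 and 135559, against 220945 and 200581. The split was opposite for mesothelial genes (13336 and 24190, against 18128 and 15936 in the wild type). Alveolar type 1 sums were also opposite (71664 and 76878, against 93831 and 90836), with both mutant lungs below the wild type. So were erythroid sums (560974 and 721513, against 623578 and 712465). In the alveolar type 1 and erythroid lists alike, 3 genes were lower in mutant replicate 2, among them Akap5 (8019 and 6584) and Hba-a1 (124468 and 95801). The split was also opposite, but small, for lymphatic endothelial (11960 and 12722) and neural genes (1515 and 1534). In whole lung, fewer cells of a type and less RNA per cell cannot be told apart. The part of cell content in these values was not tested.

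**Figure D3:**
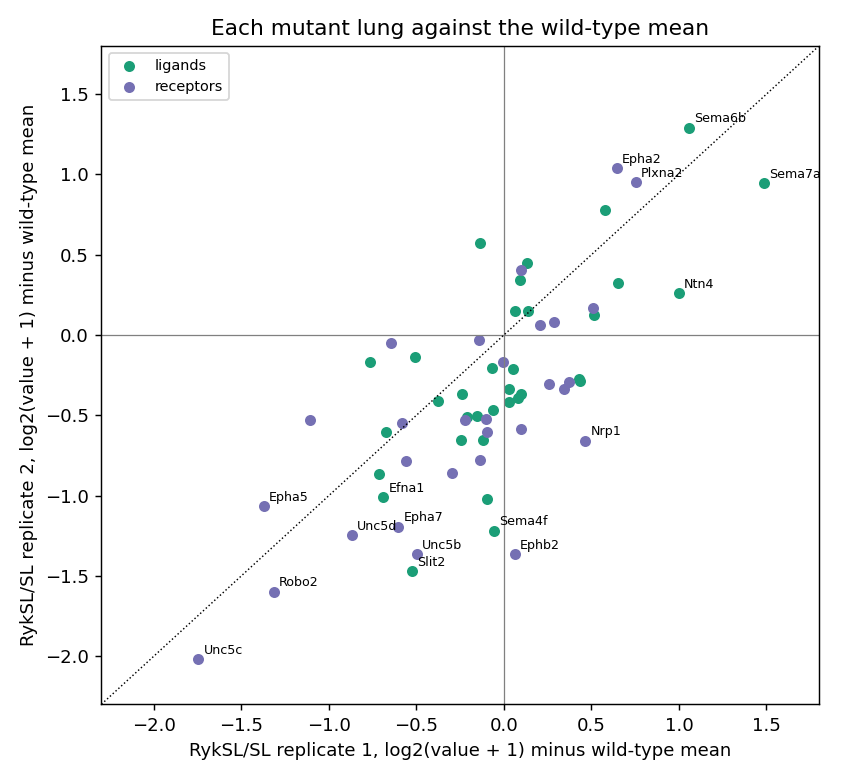
Each of the 63 guidance genes as log2(value + 1) minus the wild-type mean in mutant replicate 1 (horizontal axis) and mutant replicate 2 (vertical axis), with ligands in green and receptors in purple; the dotted line marks equal values. Unc5c and Robo2 lie near the line at the lower left, while Nrp1, Sema4f and Ephb2 lie well below it.

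Ephrins and Eph receptors contributed 19 genes, none of which passed, with 6, all of the A type, at an unadjusted p below 0.05 in limma, against 20.1% of all genes. Efna1, a GPI-anchored ligand of EphA2 that is high in vessels, had 1529 and 1226 normalized counts in the mutant lungs, against 2601 and 2346 in the wild-type lungs. The mutant mean was 0.557 of the wild-type mean (log2 difference -0.85, standard error 0.16), and the adjusted p was 0.0629 in limma, and between 0.0391 and 0.968 over the alternatives. Its receptor gene Epha2 had 887 and 1166 in the mutant lungs, against 551 and 584 in the wild-type lungs (0.84, standard error 0.18, limma adjusted p = 0.0774). Epha2 was at 0.58 and 0.951 times the value of Efna1 in the mutant lungs, against 0.212 and 0.249 times in the wild-type lungs. The groups do not overlap in either gene, and neither passed.

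The other A-type genes were mixed. Efna5 had 180 and 207 in the mutant lungs, against 129 and 112 in the wild-type lungs (0.68, limma adjusted p = 0.146), and Efna2 had 41 and 43, against 66 and 66. Efna1, Efna3 and Efna4 lie beside each other on chromosome 3, with gaps of 32757 and 10425 bases. Their log2 differences were -0.85, 0.07 and -0.33, and only that of Efna1 had lungs that do not overlap. Epha7 was at 208 and 138, against 318 and 316 (-0.90, limma adjusted p = 0.12), and the low Epha5 at 16 and 20, against 50 and 37 (-1.22, limma adjusted p = 0.13). Epha1 and Epha3 had 840 and 592, against 910 and 890, and 953 and 770, against 1056 and 1169. Epha4 overlapped between the genotypes, at 739 and 460, against 582 and 581.

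Of the 5 EphB receptors and 3 ephrin-B ligands, none passed, where 2.39% of all genes did. Of the 8 genes, 7 overlapped between the genotypes, as did 8734 of all 18436 tested genes. Efnb2, the arterial ligand, had 3028 and 2354 normalized counts in the mutant lungs, against 3056 and 2888 in the wild-type lungs (-0.15, standard error 0.17). Ephb4, its venous receptor, had 2636 and 1665, against 1908 and 2183 (0.04, standard error 0.24). The X-linked ligand gene Efnb1 had 2008 and 1231, against 1411 and 1575. Efnb3, the exception, was low, at 37 and 48 in the mutant lungs, against 51 and 55 in the wild-type lungs. Ephb2 ranged more widely within the mutant (93 and 34) than Ephb1 (71 and 64) or Ephb6 (131 and 142).

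**Figure D4:**
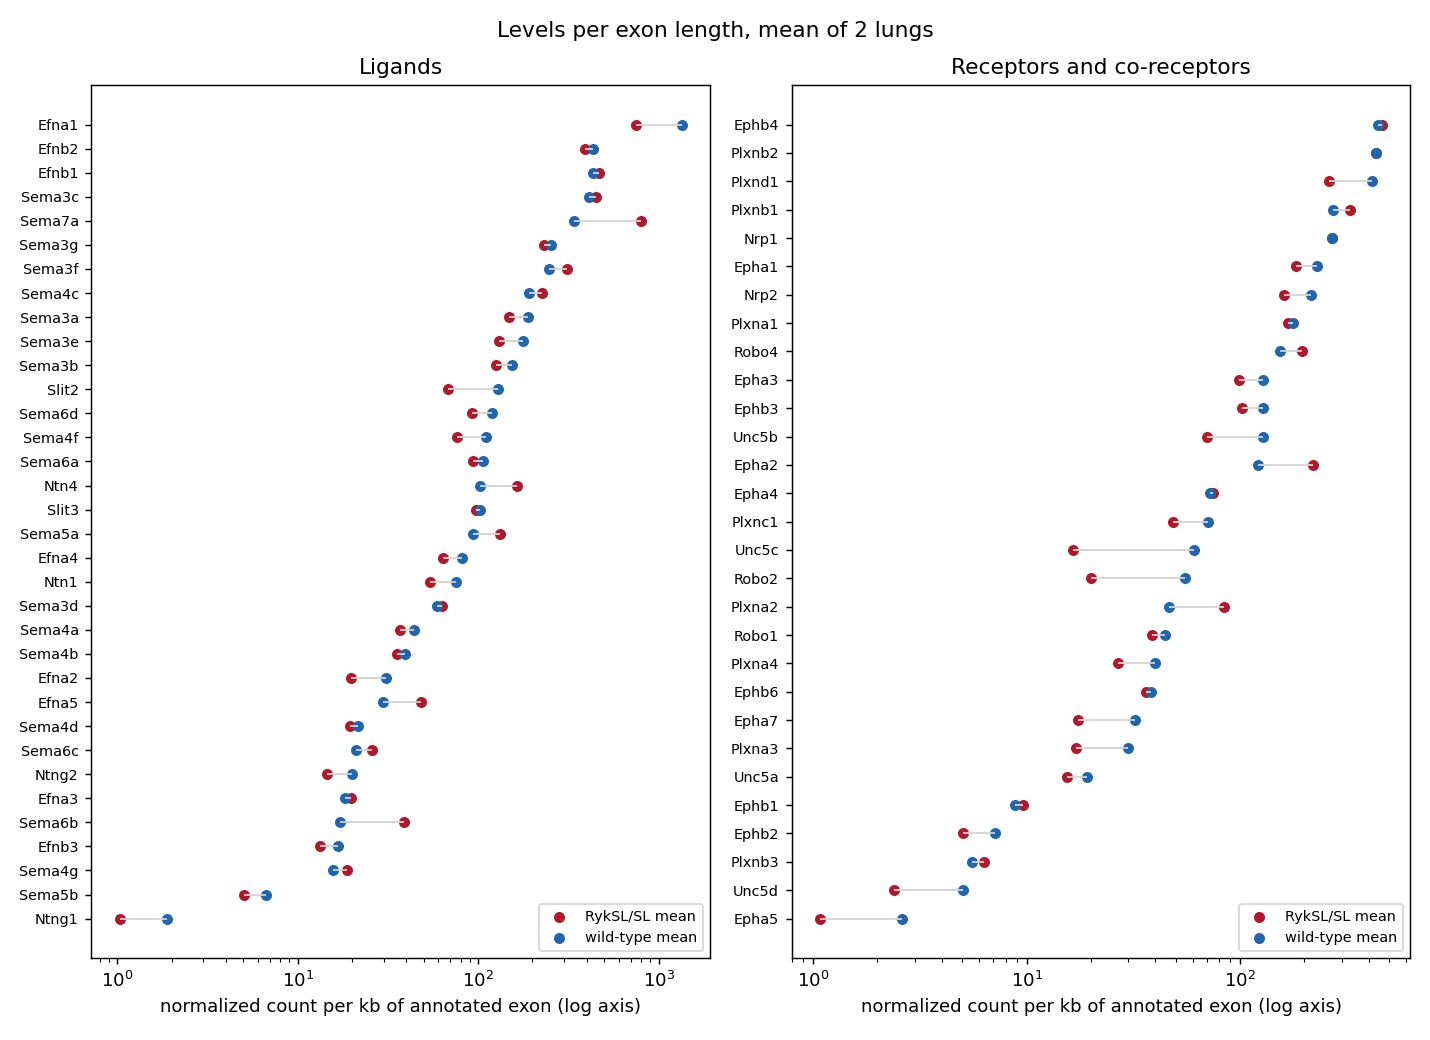
Mean normalized count per kilobase of annotated exon (horizontal log axis) of each guidance gene in the mutant lungs (red) and the wild-type lungs (blue), with ligands at the left and receptors at the right, ordered by the wild-type level. Efna1 leads the wild-type ligands (1352 per kilobase) and Ephb4 the wild-type receptors (441), while Unc5c and Robo2 sit in the middle of the receptors.

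Levels of different genes were compared per kilobase of all exons that GENCODE M21 annotates for a gene, which lowers genes with long alternative ends. On this scale the wild-type ligands ran from 1352 for Efna1 to 1.88 for Ntng1, and the receptors from 441 for Ephb4 to 2.60 for Epha5. After Efna1, the ligands Efnb2 (434), Efnb1 (433) and Sema3c (411) lay close together, and after Ephb4 the receptors Plxnb2 (433) and Plxnd1 (414). Sema7a, at 795 per kilobase in the mutant, against 339 in the wild type, was the ligand with the highest mutant mean, above Efna1 at 753. The order held in mutant replicate 1 (941 for Sema7a and 836 for Efna1) and not in mutant replicate 2 (648 and 670), so these neighbours do not differ beyond their spread. Unc5c stood at 16.6 per kilobase in the mutant, against 61.1 in the wild type, and Robo2 at 20.0, against 55.0. The genes just above the level used to choose members were Ntng1 (mean normalized count 12), Epha5 (30.8) and Unc5d (34.3). Just below it were Ntn5 (9.25), Slit1 (8.25), Robo3 (5.75) and Unc5cl (5.75), a gene whose symbol matched although it is not a netrin receptor, and Epha8, Epha10, Dcc and Epha6 were lower still.

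Downstream and partner genes of these systems were described from a separate list of 91 genes (co-receptors, other ligands, sheddases and cytosolic effectors), of which 87 were measured. One passed: Ablim3, an actin-binding LIM protein gene, fell to 965 and 836 normalized counts in the mutant lungs, against 1763 and 1693 in the wild-type lungs (-0.94, standard error 0.14, limma adjusted p = 0.0357, between 0.0257 and 0.909 over the alternatives). In the list 1 of 87 was called (1.15%, against 2.39% of all genes), and the list median was -0.02, the same as over all genes. Rock2, a kinase that drives actomyosin contraction, had 4715 and 5283, against 3158 and 3181 (0.65, limma adjusted p = 0.0817). Limk1, the kinase that inactivates cofilin, had 997 and 1655, against 523 and 649 (limma adjusted p = 0.0946). Rnd3, an antagonist of RhoA, had 458 and 494, against 779 and 705 (-0.64, limma adjusted p = 0.0934). None of these 3 passed, although their lungs do not overlap. Both mutant lungs lay above both wild-type lungs in 29.9% of the 87 genes (25.7% of all genes) and below them in 21.8% (26.9%).

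Marker genes of the cells that could carry these transcripts were read beside them. Of 10 mesenchymal genes, 7 were below the wild type in both mutant lungs. Over all genes that share was 26.9%, which also stands beside the heart muscle and macrophage counts that follow. Meox2 and Lum were called lower and Pdgfra higher, where 2.39% of all genes were called in either direction. The summed normalized counts of the 10 genes were 94021 and 63589 in the mutant lungs, against 107233 and 106920 in the wild-type lungs. Fn1, a large part of these sums, was at 36786 and 13835 in the mutant, against 18143 and 18243 in the wild type. Of 15 genes of neurons, Schwann cells and neuroendocrine cells, 6 reached the level for testing, and the glial transcription factor gene Sox10 (2 and 0 in the mutant, against 2 and 6 in the wild type) was at or near 0. The neural list summed to 1515 and 1534, against 1304 and 1327. Nefm, a neurofilament gene of this list, was at 24 and 14 in the mutant, against 1 and 1 in the wild type. Nefm was called higher, but it reached the level for testing only through the mutant lungs, so no conclusion is drawn from this call. Heart muscle genes summed to 4258 and 3662, against 7233 and 7310, and 6 of 7 measured ones were lower in both mutant lungs. Of these Myl7 (394 and 460 in the mutant, against 1333 and 1288 in the wild type) and Myl4 (432 and 558, against 1296 and 1105), which encode myosin light chains of the atrium, passed the test and fell. All 8 macrophage genes were lower as well, with sums of 18785 and 18417, against 36137 and 26599, and none of them passed. Lyz2 made up most of these sums, at 16266 and 16108 in the mutant, against 32500 and 23395 in the wild type. The part of mesenchymal and heart content in the decreases of Unc5c and Robo2 was not tested.

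**Figure D5:**
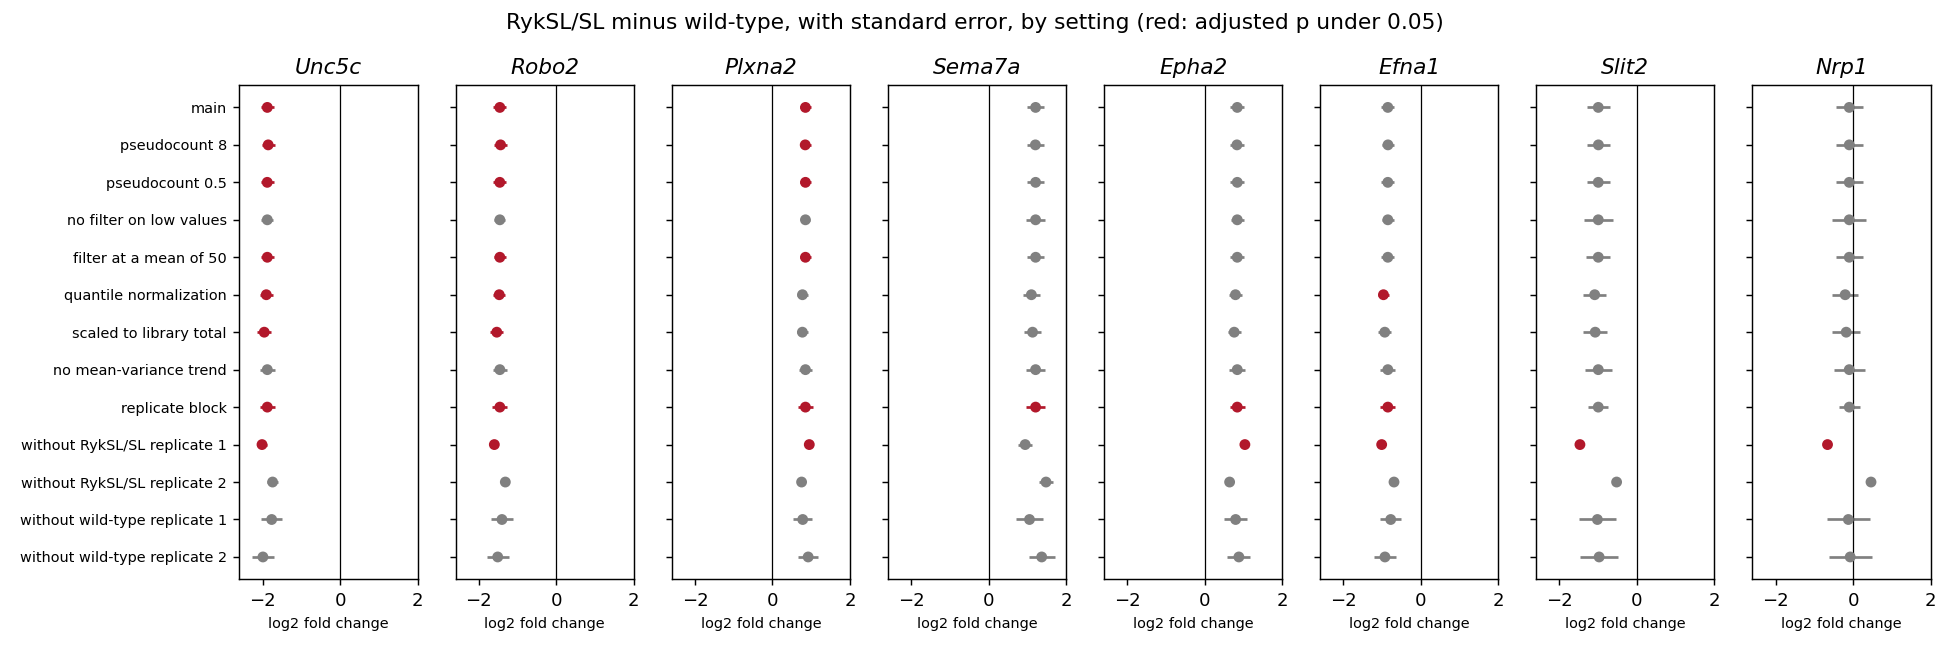
Log2 fold change (mutant minus wild type, horizontal axes) with its standard error for 8 guidance genes under the fit used here (top row, named main) and 12 alternatives; red marks an adjusted p under 0.05. Unc5c stays between -2.02 and -1.75, while Nrp1 moves from -0.66 to 0.46 with the mutant lung left out.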

How the data were processed

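RNA of the left lung lobe of 4 mice was sequenced after stranded poly(A) selection of 3 micrograms of total RNA, per the labels' protocols. The submitters' processing notes name FastQC, STAR 2.4.0a, featureCounts 1.5.1 (Subread), DESeq2 1.14.1 and the mm10/GRCm38 assembly. Whether counting used strand, and what was done with reads that align in several places, is not given in the sources. The authors deposited whole normalized counts, entered here under the unit score, and no source used here says how the authors scaled them. Library totals were 19516482 and 19987634 (mutant replicates 1 and 2) and 18743098 and 18658239 (wild-type replicates 1 and 2). Of the whole values from 1 to 200, 29 occurred in no gene of mutant replicate 2, as when counts are multiplied by about 1.17 and rounded, which puts its count total near 17090000. The other libraries lacked none, so that their factors cannot be read in this way. A value under about 10 rests on few reads.

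Groups and replicate numbers came from the sample titles. The test was limma 3.58.1 (R 4.3.3, data.table, version 1.17.8), two-sided, on log2(value + 1), with an empirical Bayes trend, over 18436 genes that averaged 10 or more. It had 2 residual and 4.07 prior degrees of freedom. Fold changes on this scale understate changes of low genes. Members, lists and tests were chosen with earlier results of these data known. The genes described in full were those called, the 4 largest non-overlapping differences in each direction among the rest, the gene with the highest mean in each of 11 families, a list of vascular and airway genes, and the 4 effectors with the smallest p; others are given by their values. Exon lengths and overlaps came from GENCODE M21 (GRCm38), and promoters from RefSeq, matched by symbol for 55 of the 63 genes. At most 9.89% of the 50-base sequences of a member's transcripts occurred in other genes. Exons of another gene overlapped those of 15 members, 11 of them on the opposite strand, where reads cannot be assigned with certainty. Python 3.11.15 (pandas 2.3.3, numpy 2.4.6, matplotlib 3.10.9) did the rest. Deviations of same-numbered lungs from their group means had a correlation of -0.058 over genes.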

Additional observations from a re-analysis of the deposited data

How the results depend on the processing

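Under 12 alternatives the count of called genes among the 63 guidance genes was 3, as reported, with pseudocounts of 8 and 0.5, a filter at a mean of 50 and quantile normalization, and 2 after scaling to the library total. It was 0 with no filter on low values and 0 without the trend. Over all genes the same settings gave 0 with no filter (limma, 4876 below 0.05 before adjustment) and 72 without the trend, and the effector count was 0 in each. The labels do not say that the replicate numbers pair the lungs. With the replicate block, 766 genes were called in all (4.15%), 7 guidance genes and 2 effectors. Leaving out a lung in turn gave 0 to 2385 genes, 0 to 17 guidance genes, 0 to 16 effectors, and a median of the guidance genes between -0.37 and -0.064; a group left with 1 lung is assumed to vary like the other. Without mutant replicate 1 the calls were the highest, and without any of the other 3 lungs there were none. After quantile normalization Plxna2 was not called and Efna1 was; Unc5c and Robo2 were called under 7 of the 12 alternatives and Plxna2 under 5.

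Of 797 single-gene values under alternatives, 28 changed sign, in 16 genes, none of which was called in the fit used here. After quantile normalization Epha4 was at -0.013, Ephb4 at -0.074, Ephb6 at 0.0019 and Efnb1 at -0.025. After scaling to the library total the log2 differences were -0.075 for Epha4, -0.0041 for Efna3, -0.041 for Ephb4 and -0.0020 for Efnb1. With 1 lung left out in turn, the log2 differences of the genes that changed sign spanned Efna3 -0.29 to 0.43, Efnb1 -0.28 to 0.43, Efnb2 -0.34 to 0.027, Epha4 -0.34 to 0.35, Ephb2 -1.36 to 0.061, Ephb4 -0.29 to 0.37, Nrp1 -0.66 to 0.46, Plxnb2 -0.30 to 0.26, Robo1 -0.58 to 0.098, Sema3d -0.076 to 0.28, Sema4b -0.38 to 0.11, Sema4d -0.39 to 0.079, Sema4g -0.14 to 0.58, Sema6a -0.42 to 0.030 and Slit3 -0.21 to 0.050. The causes were not tested. The median of all genes moved to -0.094 after scaling to the library total.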
